A study of Mus musculus with 8 samples.

Results

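The endotoxin sensing genes are Tlr2, Tlr4, Cd14, Lbp, Ly96, Myd88, Ticam1, Irak3, Nfkbia and Tnfaip3. Cells use these 10 genes to detect bacterial lipopolysaccharide (LPS, endotoxin) or, for Tlr2, bacterial lipoproteins, and to limit the response. They were taken by gene symbol from a table of read counts of 19267 genes in mouse liver, and all 10 were among the 13993 genes that passed the low-count filter. Liver RNA of male C57BL/6 mice, 9 weeks old at sampling, was sequenced in 8 libraries. From 6 weeks of age, mice were pair-fed a Lieber-DeCarli liquid diet for 21 days. The EtOH diet contained alcohol at 5% (w/v), and in the Control diet maltose dextrin supplied the same calories. The Elf4-/- mice (Elf4fl/fl-Villin-Cre) carry loxP-flanked Elf4, a transcription factor gene, and Cre recombinase under the villin promoter, which drives it in intestinal epithelium, so the liver itself was not the target of the deletion. The WT mice carried Cre as well. Crossing genotype and diet gave 4 groups of 2 libraries: WT-Control and Elf4-/--Control, WT-EtOH and Elf4-/--EtOH. The labels do not say whether each library came from its own mouse, so p-values measure only the spread between these libraries.

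LPS-binding protein, secreted by hepatocytes, takes up LPS and passes it to CD14, which delivers it to the TLR4 and MD-2 complex on Kupffer cells, the resident macrophages of the liver, and on other cells. The receptor signals through the adaptors MyD88 and TRIF toward NF-kappa B and interferon genes, and the products of Irak3, Nfkbia and Tnfaip3 restrain that signal. Alcohol feeding is a common model of liver disease in which gut-derived endotoxin reaches the liver through the portal vein.

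Library totals ran from 6171051 to 9157362 counts, and each library is one of only 2 in its group, which sets how small a difference could be seen. Mitochondrial transcripts made up 10.8% to 33.7% of the counts, with the highest share in WT-Control replicate 1 and the lowest in WT-EtOH replicate 2. Elf4 itself was at 0.895 to 4.51 CPM (counts scaled to a common library size) in liver, with ranges that overlapped between genotypes on each diet, which bears on liver and not on the intestine where the deletion acts. Levels below are CPM on library sizes scaled by TMM (trimmed mean of M-values). The TMM factors also separated the diets in WT, at 0.841 and 0.882 in Control and 1.13 and 1.19 in EtOH. In Elf4-/- they were 1.07 and 0.956 in Control and 0.955 and 1.02 in EtOH. Hepatocyte markers were abundant in every library, but their summed level over 8 genes was lower under EtOH in each genotype. It was 55680 to 77229 CPM in WT-Control and 33056 to 40982 CPM in WT-EtOH. In Elf4-/--Control it was 65789 to 73662 CPM, and in Elf4-/--EtOH 43847 to 54293 CPM. Alb alone was at 40956 and 42753 CPM in Elf4-/--Control and at 26685 and 35690 CPM in Elf4-/--EtOH, so it weighed heavily in the sums. Gene by gene, 0 of the 8 had a higher estimate under EtOH in WT, with a median log2 difference of -0.73. In Elf4-/- 4 of the 8 did, with a median of -0.05. In bulk tissue, fewer cells of a type, less RNA per cell and a change in a few abundant genes cannot be told apart.

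Ranked by level per length, CPM per kb of annotated exons, Nfkbia was the highest of the 10 genes at a mean of 30.9 over the 8 libraries, followed by Lbp at 16.4, Myd88 at 6.83, Ly96 at 5.45 and Ticam1 at 3.60. Cd14 was at 1.38, Tlr2 at 0.559, Tnfaip3 at 0.463, Irak3 at 0.385 and Tlr4 at 0.169 CPM per kb. The ranges of the 8 libraries overlapped between every pair of neighbours in this order. The receptor Tlr4 thus had the lowest level, and its counts ran from 1 to 22 per library, so its differences below rest on few reads.

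Tlr4, the signalling receptor for LPS (chr4:66827584-66930284, plus strand of GRCm38), was at 0.746 and 0.184 CPM in WT-Control and at 2.02 and 2.24 CPM in WT-EtOH. In Elf4-/--Control it was at 0.205 and 0.298 CPM, and in Elf4-/--EtOH at 0.478 and 1.33 CPM. Both EtOH libraries lay above both Control libraries in each genotype. The difference of EtOH from Control was 2.16 ± 0.81 (log2 fold change ± SE) in WT, with an adjusted p of 0.0825, and 1.84 ± 0.91 in Elf4-/-, with an adjusted p of 0.275. The Elf4-/--Control group held 4 Tlr4 reads in all against 13 in Elf4-/--EtOH, where the libraries held 3 and 10. The ratio was 3.87 with a counting interval of 1.20 to 16.3, which leaves out the spread between libraries. The interval of the fitted log2 difference of 1.84 ran from -0.18 to 3.86 and so included no change. Under the control diet, the ratio of Elf4-/- to WT was 0.525, from 4 and 5 reads, with a counting interval of 0.104 to 2.44. Tlr4 was the only one of the 10 genes whose Elf4-/--EtOH libraries both lay below both WT-EtOH libraries, a difference of -1.20 ± 0.70 with an adjusted p of 0.604.

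Ly96 encodes MD-2, the subunit of the receptor that binds LPS (chr1:16688051-16709611, plus strand). Its level was 6.53 and 4.78 CPM in WT-Control, 5.56 and 6.32 CPM in WT-EtOH, 4.71 and 4.33 CPM in Elf4-/--Control and 6.85 and 5.44 CPM in Elf4-/--EtOH. Ly96 was the steadiest of the receptor genes, with WT libraries of both diets in the same range. The 95% interval of the diet difference was -0.66 to 0.81 in WT and -0.30 to 1.17 in Elf4-/- on the log2 scale. Differences inside these intervals could not be resolved.

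Cd14, the LPS co-receptor of macrophages (chr18:36725067-36726798, minus strand), was at 2.24 and 1.66 CPM in WT-Control, 3.92 and 3.97 CPM in WT-EtOH, 0.820 and 0.448 CPM in Elf4-/--Control, and 4.62 and 1.46 CPM in Elf4-/--EtOH. The Elf4-/--Control libraries were the lowest pair. Both EtOH libraries were above both Control libraries in each genotype, and the Elf4-/--EtOH libraries stood 3.17-fold apart. EtOH differed from Control by 1.01 ± 0.60 in WT (adjusted p = 0.255) and by 2.16 ± 0.68 in Elf4-/- (adjusted p = 0.107). Under the control diet, Elf4-/- differed from WT by -1.55 ± 0.72, with an adjusted p of 0.697.

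Lbp, the LPS carrier (chr2:158306493-158332852, plus strand), is an acute phase gene of hepatocytes and had the widest spread in CPM. It was at 91.7 and 82.1 CPM in WT-Control, 97.9 and 55.7 CPM in WT-EtOH, 30.2 and 46.8 CPM in Elf4-/--Control, and 196 and 32.0 CPM in Elf4-/--EtOH. One Elf4-/--EtOH library held the highest value of all 8 and the other was near the bottom, a 6.13-fold gap. Both Elf4-/--Control libraries were below both WT-Control libraries, a difference of -1.18 ± 0.63 (adjusted p = 0.754). In Elf4-/-, EtOH differed from Control by 1.56 ± 0.64 (adjusted p = 0.196), while in WT the difference was -0.18 ± 0.62 (adjusted p = 0.861).

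Tlr2, the receptor for bacterial lipoproteins (chr3:83836272-83841767, minus strand), was at 1.49 and 0.368 CPM in WT-Control, 2.28 and 2.24 CPM in WT-EtOH, 1.33 and 1.49 CPM in Elf4-/--Control, and 3.35 and 0.929 CPM in Elf4-/--EtOH. In WT both EtOH libraries were above both Control libraries, by 1.27 ± 0.79 (adjusted p = 0.273). In Elf4-/- the groups overlapped, because Elf4-/--EtOH replicate 2 lay below both Control libraries.

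**Figure D1:**
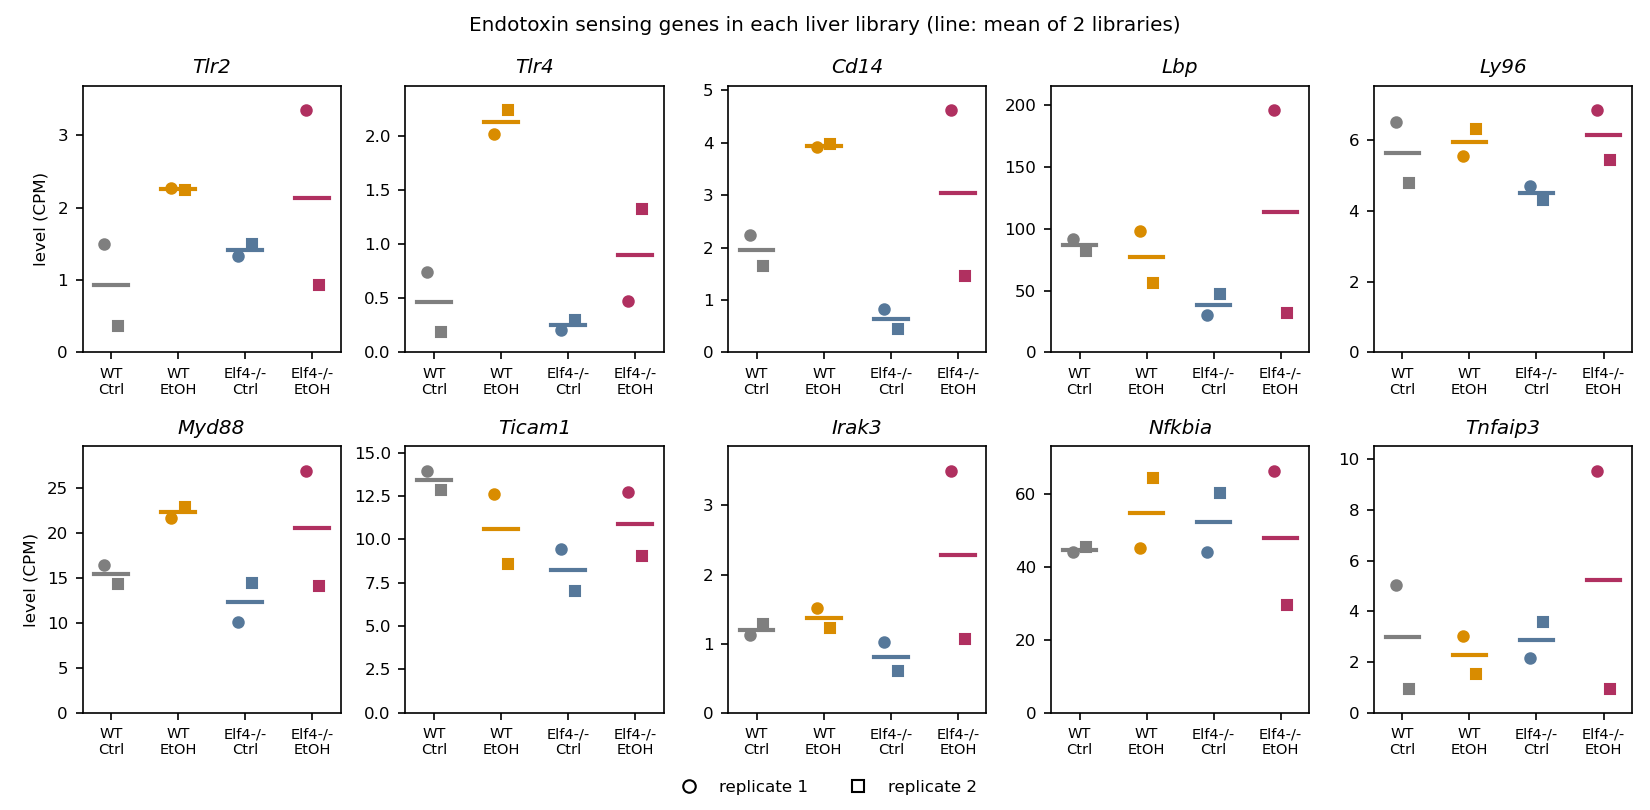
Level of each of the 10 endotoxin sensing genes in CPM in the 8 liver libraries, on linear axes that start at 0 and differ between panels; circles are replicate 1, squares replicate 2, and lines the mean of 2 libraries. The Elf4-/--EtOH libraries stand far apart for Lbp (196 and 32.0 CPM) and Tnfaip3 (9.56 and 0.929 CPM), whereas the WT-EtOH libraries are close together for Tlr2, Tlr4, Cd14 and Myd88.

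Myd88, the adaptor shared by most Toll-like receptors (chr9:119335934-119341411, minus strand), was at 16.4 and 14.4 CPM in WT-Control, 21.6 and 22.9 CPM in WT-EtOH, 10.04 and 14.5 CPM in Elf4-/--Control, and 26.9 and 14.1 CPM in Elf4-/--EtOH. WT-EtOH lay above WT-Control in both libraries, and in Elf4-/- only replicate 1 of the EtOH group did so. The diet difference was 0.53 ± 0.31 in WT (adjusted p = 0.244) and 0.75 ± 0.31 in Elf4-/- (adjusted p = 0.208). Myd88 shares 290 exonic bases, 11.3% of its exon length, with Acaa1a, a peroxisomal thiolase gene on the other strand at 204 to 338 CPM; the strand setting of the counting is not given in the sources used here, and the part of shared reads in these values was not tested.

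Ticam1 encodes TRIF, the adaptor of the interferon arm (chr17:56269319-56276786, minus strand). It was at 14.0 and 12.9 CPM in WT-Control, 12.6 and 8.56 CPM in WT-EtOH, 9.43 and 7.01 CPM in Elf4-/--Control, and 12.8 and 9.02 CPM in Elf4-/--EtOH. Ticam1 was the only one of the 10 genes whose WT-EtOH libraries both lay below WT-Control. Its Elf4-/--Control libraries were likewise both below WT-Control, by -0.70 ± 0.31, with an adjusted p of 0.677.

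Irak3, whose product blocks signalling downstream of MyD88 (chr10:120141648-120202130, minus strand), was at 1.12 and 1.29 CPM in WT-Control, 1.52 and 1.22 CPM in WT-EtOH, 1.02 and 0.597 CPM in Elf4-/--Control, and 3.51 and 1.06 CPM in Elf4-/--EtOH. Its Elf4-/--EtOH replicate 1 was 3.30-fold above replicate 2 and was the highest library. The diet difference in Elf4-/- was 1.42 ± 0.70 (adjusted p = 0.279). Irak3 shares 5.22% of its exon length with Tmbim4 on the other strand, at 36.2 to 67.7 CPM, and the part of shared reads was not tested.

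Nfkbia, which encodes the NF-kappa B inhibitor I kappa B alpha (chr12:55489410-55492647, minus strand), was at 44.0 and 45.3 CPM in WT-Control, 45.0 and 64.2 CPM in WT-EtOH, 44.0 and 60.3 CPM in Elf4-/--Control, and 66.3 and 29.6 CPM in Elf4-/--EtOH. Its highest and lowest values were the 2 Elf4-/--EtOH libraries. All 4 comparisons of groups overlapped for Nfkbia, and the intervals of its differences ran from -0.95 to 1.05 on the log2 scale at their widest ends.

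Tnfaip3 encodes A20, a ubiquitin-editing enzyme that ends NF-kappa B signalling (chr10:19000910-19015657, minus strand). It was at 5.03 and 0.920 CPM in WT-Control, 3.03 and 1.53 CPM in WT-EtOH, 2.15 and 3.58 CPM in Elf4-/--Control, and 9.56 and 0.929 CPM in Elf4-/--EtOH. Its Elf4-/--EtOH libraries stood 10.3-fold apart, the widest gap of the 10 genes in that group. With that spread its 4 differences had standard errors of 0.93 to 0.99 on the log2 scale.

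Reference promoters were available for Tlr2, Myd88, Ticam1, Irak3, Nfkbia and Tnfaip3, from 250 bases before to 50 bases after the annotated start (RefSeq, GRCm38.p6), with 8 promoters for the 6 genes. They were searched on both strands for the NF-kappa B motif, the kappa B consensus, because Nfkbia and Tnfaip3 are textbook targets of that factor. Matches were found for 3 of the 6 genes, Tlr2, Tnfaip3 and Nfkbia, while the other of the Tnfaip3 promoters held none. Of the 32851 promoters of the table, 4.51% held at least 1. That is a share of promoters and not of genes, and the motif was chosen with Nfkbia and Tnfaip3 in mind, so the shares were not compared. The sequences of the 3 genes with a match, picked after their values were seen, are shown. All 3 genes were over 2-fold higher in Elf4-/--EtOH replicate 1 than in replicate 2. So were Cd14, Lbp and Irak3, but Cd14 and Lbp had no reference promoter and Irak3 had no match. Any tie between matches and levels was not tested. Capitals mark the matches, and the run of 11 capitals in Tlr2 holds overlapping matches on both strands. The windows are chr3:83841559-83841858 for Tlr2, chr10:19015361-19015660 for Tnfaip3 and chr12:55492598-55492897 for Nfkbia, each read 5′ to 3′ along the minus strand.
Tlr2: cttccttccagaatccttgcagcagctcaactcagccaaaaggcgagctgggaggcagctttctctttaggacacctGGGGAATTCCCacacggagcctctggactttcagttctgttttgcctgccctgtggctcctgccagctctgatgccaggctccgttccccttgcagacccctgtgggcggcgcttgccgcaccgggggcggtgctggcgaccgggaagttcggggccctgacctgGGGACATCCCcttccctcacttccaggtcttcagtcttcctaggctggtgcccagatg
Tnfaip3: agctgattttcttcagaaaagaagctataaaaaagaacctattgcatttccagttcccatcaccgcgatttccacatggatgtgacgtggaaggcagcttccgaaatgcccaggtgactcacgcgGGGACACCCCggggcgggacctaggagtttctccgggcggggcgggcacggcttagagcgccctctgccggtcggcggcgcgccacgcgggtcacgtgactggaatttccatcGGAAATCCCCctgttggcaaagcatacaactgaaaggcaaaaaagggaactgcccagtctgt
Nfkbia: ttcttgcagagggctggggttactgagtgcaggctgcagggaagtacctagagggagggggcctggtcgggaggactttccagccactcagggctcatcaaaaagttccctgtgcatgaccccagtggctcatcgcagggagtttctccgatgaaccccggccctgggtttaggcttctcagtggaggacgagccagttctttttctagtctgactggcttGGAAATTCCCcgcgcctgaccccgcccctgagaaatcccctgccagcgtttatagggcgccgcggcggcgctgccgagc
A match is a run of letters and no measurement of binding. Irak3 had no match in its 2 windows, and neither did Myd88 nor Ticam1.

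The first question was whether alcohol feeding changed these genes in WT liver. No member passed an adjusted p of 0.05 in edgeR's quasi-likelihood test, against 21.6% of all genes tested, and none passed in DESeq2, where 20.1% did. At an unadjusted p under 0.05 only Tlr4 passed, against 36.4% of all genes. The EtOH and Control libraries did not overlap for 5 of the 10 members, against 66.8% of all genes, with Tlr2, Tlr4, Cd14 and Myd88 higher under EtOH (34.1% of all genes) and Ticam1 lower (32.7%). The estimate was positive for 7 members, against 50.7% of all genes, and the median log2 difference of the members was 0.24, against 0.01 for all genes. Scaling by library totals alone raised the median of all genes by 0.43, with 3422 genes called higher and 634 lower in place of 1518 and 1507, and under that scaling Tlr4 (2.59, adjusted p = 0.0369) and Myd88 (0.97, adjusted p = 0.0322) passed.

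In Elf4-/- liver, 9 of the 10 members had a higher estimate under EtOH (50.9% of all genes), with Nfkbia the exception at -0.12, and the median was 0.80 against 0.01 for all genes. None passed an adjusted p of 0.05 in edgeR, where 2.89% of all genes did, and none in DESeq2, where 5.8% did and where Tlr2, Tlr4 and Irak3 had no adjusted p. Cd14, Lbp and Myd88 passed an unadjusted 0.05, against 21.2% of all genes. Both EtOH libraries were above both Control libraries for Tlr4, Cd14, Ly96 and Irak3, as for 25.8% of all genes. This comparison turned on 1 library. Without Elf4-/--EtOH replicate 2, 3 members passed, Cd14 (2.76), Lbp (2.33) and Myd88 (1.13), and without replicate 1 none did and Lbp was at -0.26; the remaining EtOH library is then assumed to vary like the other groups.

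**Figure D2:**
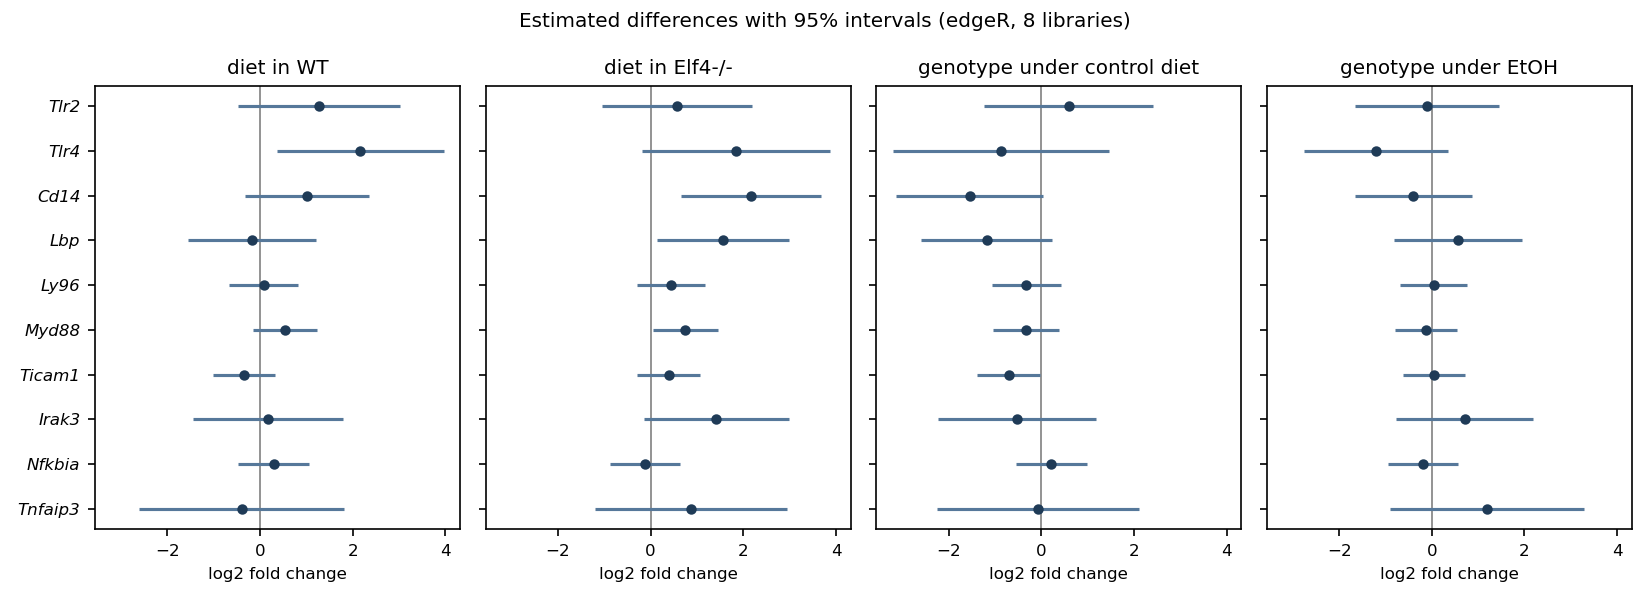
Estimated log2 fold change (points) with 95% intervals (lines) for the 10 genes in 4 comparisons from 1 edgeR model of 8 libraries; diet is EtOH over Control and genotype is Elf4-/- over WT. Intervals are wide for Tlr4, Tlr2 and Tnfaip3, and narrowest for Ly96, Myd88, Ticam1 and Nfkbia.

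The second question was whether intestinal loss of Elf4 changed these genes in liver. Under EtOH no member passed in edgeR, where 0.143% of all genes did, nor at an unadjusted 0.05 (10.5% of all genes), nor in DESeq2 (1.29%), which gave no adjusted p for Tlr4. The members were split evenly, 5 with a higher and 5 with a lower estimate in Elf4-/- (higher for 50.1% of all genes), with a median of -0.03, and only Tlr4 was lower in both libraries than in both of WT (21.4% of all genes). The intervals still held large differences: that of Lbp ran from -0.81 to 1.95, and that of Cd14 from -1.66 to 0.87. Leaving out 1 of the 2 Elf4-/--EtOH libraries moved Lbp from 0.57 to -1.25 without replicate 1 and to 1.35 without replicate 2.

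Under the control diet 8 of the 10 members had a lower and 2 a higher estimate in Elf4-/- (higher for 51.4% of all genes), with a median of -0.43 against 0.01 for all genes, and 5 members, Cd14, Lbp, Ly96, Ticam1 and Irak3, lay below WT-Control in both libraries, as did 18.5% of all genes. No member passed in edgeR, where 0.0143% of all genes did, or in DESeq2 (0.565%), which gave no adjusted p for Tlr2, Tlr4, Cd14 and Irak3, and at an unadjusted 0.05 only Ticam1 did (7.31% of all genes). Acute phase genes, to which Lbp belongs, moved the same way, with a lower estimate in 13 of 13 genes and a median of -1.07. None of the 13 passed in edgeR, 10 passed an unadjusted 0.05 as lower, and DESeq2 called 3. Their summed level was 15158 and 20179 CPM in WT-Control and 7154 and 9611 CPM in Elf4-/--Control.

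The interaction asks whether the diet difference itself differed between genotypes. No member passed in edgeR, where 0% of all genes did, none at an unadjusted 0.05 (10.1% of all genes) and none in DESeq2 (0.793%), which gave an adjusted p for only 4 of them, Lbp, Myd88, Ticam1 and Nfkbia. The estimates were 1.74 ± 0.89 for Lbp (adjusted p = 0.554), 1.15 ± 0.91 for Cd14 (adjusted p = 0.718) and -0.32 ± 1.45 for Tlr4 (adjusted p = 0.960). The interval for Tlr4 ran from -3.56 to 2.92, so the counts give almost no information on whether its diet response differed by genotype. Without Elf4-/--EtOH replicate 2, Lbp passed at 2.52 with an adjusted p of 0.0198, and without replicate 1 its estimate was -0.08.

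Because the diet estimates of the receptors pointed the same way in both genotypes, the mean of the 2 diet differences was also tested, a comparison chosen after seeing the data that sets 4 EtOH against 4 Control libraries. Cd14 rose by 1.59 ± 0.45 on the log2 scale (adjusted p = 0.0270, range over the alternatives 0.00505 to 0.111) and Tlr4 rose by 2.0 ± 0.61 (adjusted p = 0.0346, range 0.0225 to 0.170). Each was higher in 3 of the 4 EtOH libraries than in every Control library. These were 2 of 10 members, while 28% of all genes passed, and Myd88 joined them at an unadjusted 0.05 (40.8% of all genes). DESeq2, where 25.6% of all genes passed, called Cd14 (adjusted p = 0.0155) and not Tlr4 (adjusted p = 0.0531).

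The averaged difference was positive for all 10 members (50.9% of all genes), with a median of 0.67 against 0.01 for all genes, but for Ticam1 (0.02) and Nfkbia (0.09) it was close to 0. Myd88 was at 0.64 ± 0.22 with an adjusted p of 0.0543. With 1 library left out the estimates kept their sign, at 1.07 to 1.88 for Cd14 and 1.53 to 2.63 for Tlr4, but most calls were lost: Cd14 passed in 1 of the 8 fits that left out a library, the one without Elf4-/--EtOH replicate 2, and Tlr4 passed in 2, those without WT-Control replicate 1 and without Elf4-/--EtOH replicate 1. The mean of the genotype differences over both diets, also chosen after seeing the data, called no member in edgeR, where 0.136% of all genes passed, and none in DESeq2 (0.843%); none passed an unadjusted 0.05 (7.94% of all genes). Without Elf4-/--EtOH replicate 1 that comparison called Lbp.

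The genes outside the 10 whose log2 CPM followed these patterns most closely over the 8 libraries were, for Cd14, Meg3 (r = 0.982), Afg3l1 (r = 0.972) and Gaa (r = 0.965), and for Tlr4, Agps (r = 0.974), Gm44250 (r = 0.971) and Ptgs1 (r = 0.965). These are the top of 9394 genes ranked on 8 libraries that share group and depth, and are given as a description.

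The 2 Elf4-/--EtOH libraries were the least alike for these genes. Replicate 1 was above replicate 2 for 9 of the 10, and by over 2-fold for 6, Tlr2, Cd14, Lbp, Irak3, Nfkbia and Tnfaip3. Tlr4 went the other way, 2.77-fold higher in replicate 2. In all, 7 members were over 2-fold apart in that group, against 17.5% of all genes and 33.4% of genes with a mean under 50 counts. In WT-Control, 3 members were over 2-fold apart, Tlr2, Tlr4 and Tnfaip3, all higher in replicate 1 and all with a mean under 50 counts. The share was 15.1% for all genes and 35.4% for genes with a mean under 50 counts. No member was over 2-fold apart in WT-EtOH or Elf4-/--Control, where 6.71% and 8.51% of all genes were.

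Some other values moved with replicate 1 of Elf4-/--EtOH. The summed level of the 4 neutrophil markers tested was 17.4 CPM there, the highest of the 8 libraries, and 6.10 CPM in replicate 2. S100a9, a neutrophil calcium-binding protein gene, was at 7.17 and 1.06 CPM, and Ccl2, a monocyte chemoattractant, at 8.13 and 0 CPM. Csf3r, the receptor of a neutrophil growth factor, did not follow, at 4.14 and 4.38 CPM. Of the 9 neutrophil markers listed, Csf3r, S100a8, S100a9 and Retnlg were tested, and Retnlg was at 0 counts in 4 of the 8 libraries. The summed acute phase level was 10477 CPM in replicate 1 and 8389 CPM in replicate 2, with 12 of 13 genes higher in replicate 1. The WT-EtOH libraries, in which no member was over 2-fold apart, had a wider acute phase gap, 13932 and 7448 CPM, with 13 of 13 genes higher in replicate 1. The part of these values in the gap between the libraries was not tested.

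**Figure D3:**
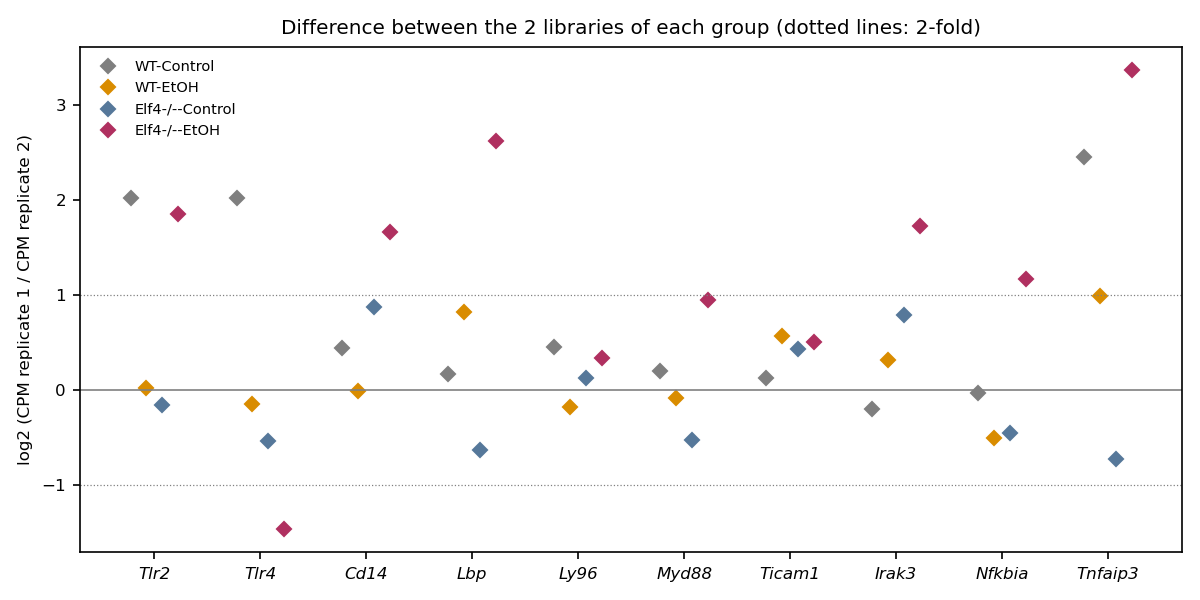
Log2 ratio of CPM in replicate 1 over replicate 2 for each of the 10 genes in each group, with dotted lines at 2-fold. Elf4-/--EtOH lies above 0 for 9 genes and reaches 10.3-fold for Tnfaip3, with Tlr4 below 0.

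Markers of Kupffer, sinusoidal endothelial and stellate cells moved with diet, most of all in WT. Over all 13993 genes tested, edgeR called 1518 higher under EtOH in WT and 239 in Elf4-/-, so the counts of markers called are not alike between genotypes. All 11 Kupffer cell markers passed the threshold as higher under EtOH in WT, with a median of 2.0 on the log2 scale, and 2 of 11 did so in Elf4-/-, where the median was 0.80. Their summed level was 231 to 306 CPM in WT-Control, 755 to 867 CPM in WT-EtOH, 218 to 228 CPM in Elf4-/--Control and 307 to 347 CPM in Elf4-/--EtOH. In WT, Tlr4 and Cd14 were highest in the libraries with the most Kupffer cell transcripts. Elf4-/--EtOH replicate 1 had summed Kupffer markers below both WT-EtOH libraries. Cd14 was there at 4.62 CPM from 29 reads, against 3.92 and 3.97 CPM from 31 and 39 reads in WT-EtOH. Tlr4 was there at 0.478 CPM from 3 reads, against 2.02 and 2.24 CPM in WT-EtOH. Clec4f, a defining Kupffer cell marker, was present in every library, at 89.4 to 238 CPM. The 8 markers of monocyte-derived macrophages summed to 114 to 151 CPM in WT-Control and 117 to 121 CPM in WT-EtOH. In Elf4-/- the sums were 77.9 to 191 CPM in Control and 101 to 109 CPM in EtOH. Of the 5 tested, edgeR called 2 higher under EtOH in WT and 0 in Elf4-/-, with medians of 1.88 and -0.12. Markers of sinusoidal endothelial cells were higher in 8 of 8 and those of stellate cells in 7 of 8 under EtOH in WT, and in Elf4-/- edgeR called 0 of 8 of each, with 2 and 3 at an unadjusted 0.05 and 0 and 2 in DESeq2. Between genotypes under EtOH, 2 of 11 Kupffer cell markers were called lower in Elf4-/- in edgeR, against 3 of all 13993 genes, and DESeq2 called 6. All 11 were lower at an unadjusted 0.05 (605 of all 13993 genes), with a median of -1.32. Of the endothelial and stellate markers, 3 of 8 and 0 of 8 were lower at an unadjusted 0.05, and neither method called any. In the interaction edgeR called no Kupffer, endothelial or stellate marker, and DESeq2 called 0, 3 and 1. At an unadjusted 0.05 were 8 of 11 Kupffer, 7 of 8 endothelial and 3 of 8 stellate markers, all with a lower diet difference in Elf4-/-. Hepatocyte markers went the other way in WT, with a median diet difference of -0.73. Of these 8 markers, 1 was called lower in edgeR, as were 1507 of all 13993 genes, and DESeq2 called 3. In Elf4-/- their median was -0.05, with 0 called in edgeR and 1 in DESeq2. The part of cell composition in the values of Tlr4, Cd14, Tlr2 and Myd88 was not tested.

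**Figure D4:**
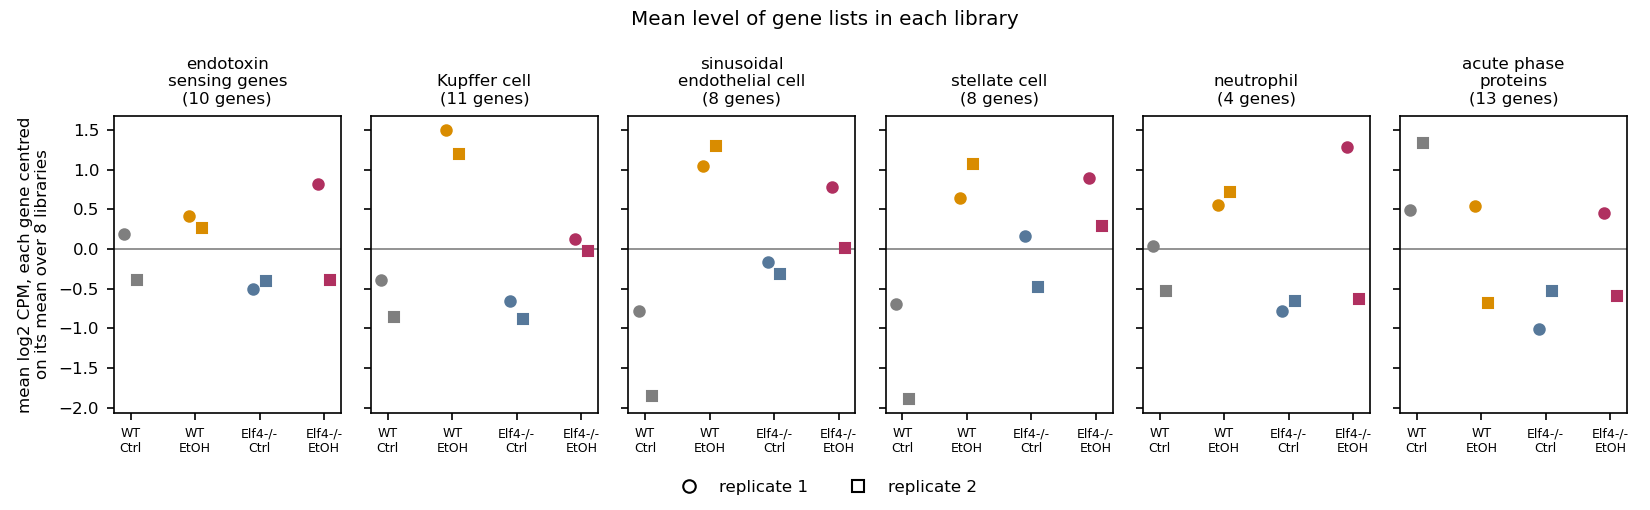
Mean log2 CPM of gene lists in the 8 libraries, each gene centred on its mean over all libraries; circles are replicate 1 and squares replicate 2. The 10 endotoxin sensing genes are highest in Elf4-/--EtOH replicate 1, whereas the Kupffer cell and sinusoidal endothelial lists are highest in the 2 WT-EtOH libraries.

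Of 80 further genes of the pathway, 74 were in the table and 63 were tested. No gene of these lists passed in either genotype comparison or in the interaction in edgeR, with 8, 6 and 5 genes at an unadjusted 0.05 under EtOH, under the control diet and in the interaction, and DESeq2 called 0, 0 and 1. Under EtOH in WT, 6 rose and 7 fell, 20.6% of those tested, and in Elf4-/- 3 rose and none fell, 4.76%. The shares over all genes were 21.6% and 2.89%.

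Marco, a macrophage scavenger receptor that binds LPS, was at 2.61 and 2.02 CPM in WT-Control and 84.2 and 33.2 CPM in WT-EtOH, a rise of 4.65 ± 0.58 (adjusted p = 0.00182). In Elf4-/- it was at 4.30 and 1.79 CPM in Control and 28.5 and 16.2 CPM in EtOH, a rise of 2.81 ± 0.53 (adjusted p = 0.0276). Marco is also on the Kupffer cell list. Cd36, a fatty acid and lipoprotein receptor that works with TLR2, rose by 3.19 ± 0.47 in WT and 3.39 ± 0.46 in Elf4-/-, with adjusted p of 0.00299 and 0.00972. Jun, a subunit of the AP-1 transcription factor, rose by 1.61 ± 0.31 in WT and 2.31 ± 0.30 in Elf4-/-, with adjusted p of 0.00737 and 0.00972. Msr1, another macrophage scavenger receptor, rose by 2.34 in WT.

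Several genes fell under EtOH in WT. Cxcl1, a neutrophil chemokine, was at 107 and 57.4 CPM in WT-Control and 11.8 and 13.6 CPM in WT-EtOH, a fall of 2.70 on the log2 scale (adjusted p = 0.00739). Ikbke, a kinase of the interferon arm, fell by 1.71, and Zfp36, whose product destabilizes cytokine mRNA, fell by 1.42. The HDL receptor gene Scarb1 fell by 0.98, Nfkb2 by 0.95, Cnpy3, a chaperone of Toll-like receptors, by 0.81, and Irf7 by 0.66. Ikbkg, the regulatory subunit of the I kappa B kinase complex, rose by 0.76, as did the NF-kappa B subunit Rel, by 1.30, from a mean of 41 counts. Of 13 acute phase genes, Saa4 (-1.33) and Apcs (-1.27) passed as lower in WT in edgeR and none passed in Elf4-/-, where 4 passed an unadjusted 0.05 as higher; DESeq2 called 4 in WT and 2 in Elf4-/-. In the interaction, none of these genes passed in edgeR, and DESeq2 called Ikbke, whose diet difference was -1.71 in WT and -0.02 in Elf4-/- (interaction 1.69 ± 0.41; adjusted p = 0.273 in edgeR and 0.0287 in DESeq2).

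**Figure D5:**
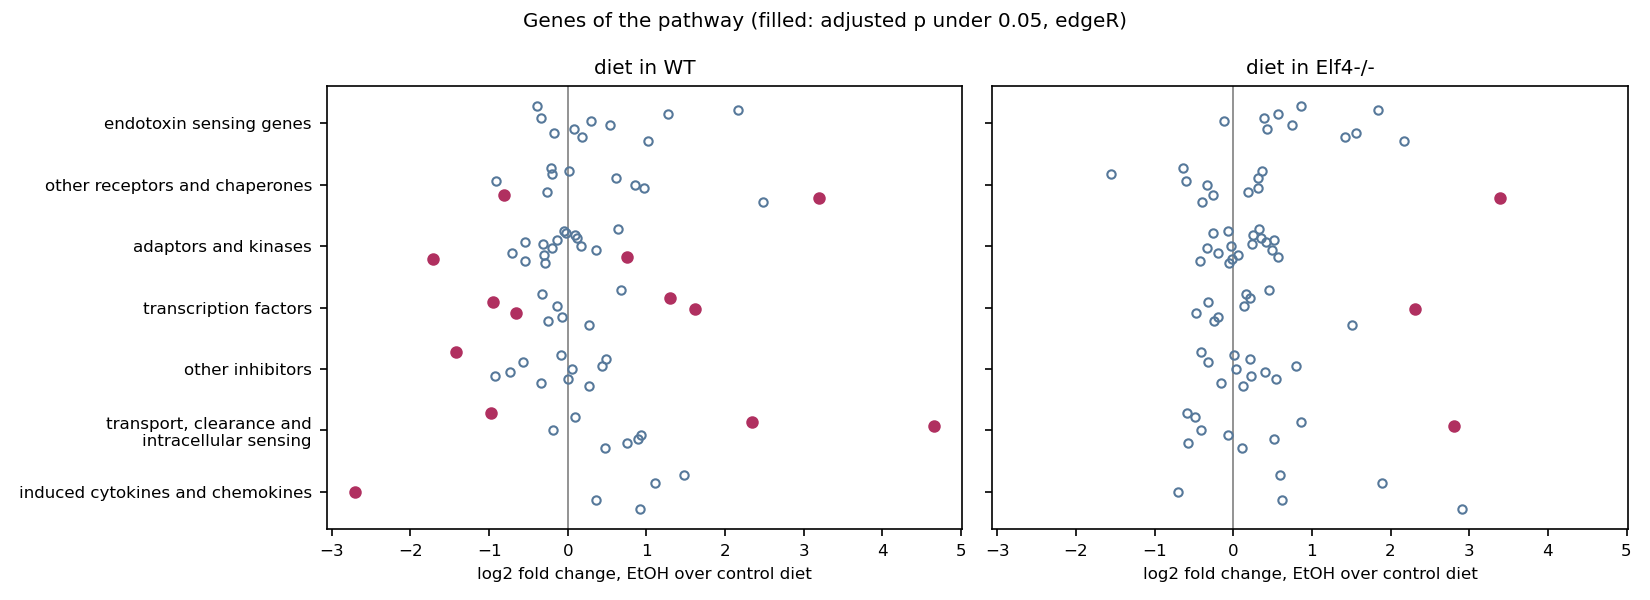
Log2 fold change of EtOH over Control for the 10 endotoxin sensing genes and 6 lists of other pathway genes in WT and in Elf4-/-; filled points passed an adjusted p of 0.05 in edgeR and open points did not. All 10 endotoxin sensing genes are open in both panels, while Marco is the highest filled point in WT (4.65) and Cd36 in Elf4-/- (3.39).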

How the data were processed

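Per the labels and the study's methods, liver RNA was extracted with Trizol, and the authors aligned reads to mm10 with HISAT2, sorted them with SAMtools, counted them per gene with HTSeq and tested with DESeq2. Versions, annotation and strand setting are not given in the sources used here. The values deposited are raw counts of reads, 1 row per gene symbol and 1 column for each of 8 libraries.

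The members and gene lists were chosen with earlier results of these data known. All 8 libraries entered 1 quasi-likelihood model in edgeR 4.0.16 (R 4.3.3) with 1 coefficient per group and TMM scaling, after filterByExpr. Adjusted p-values are Benjamini-Hochberg over 13993 genes, with a threshold of 0.05, for 5 contrasts and 2 added after seeing the data. The common biological coefficient of variation was 22.7%. Intervals are 95%, and counting intervals cover counting error only. Exon lengths came from GENCODE M21 (GRCm38), which may not be the annotation used for counting. Pathway and acute phase genes outside the 10 were named where they passed in a genotype contrast or the interaction, or were the 3 largest changes of their list past the threshold in a diet contrast with a mean of at least 50 counts. Rel, S100a9, Ccl2, Clec4f and the other neutrophil markers named were chosen after their values were seen. Genes of like pattern were the 3 with the highest Pearson r for each member past the threshold. DESeq2 1.42.0, its size factors, library totals alone, no filter, a replicate block, only the 4 libraries compared, and leaving out each library were the alternatives. The test was tried on simulated data.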

Additional observations from a re-analysis of the deposited data

How the results depend on the processing

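The count of members past the threshold was 0 for both genotype contrasts under every alternative run, with DESeq2 giving no adjusted p for some low-count members. For diet in WT it was 2 with library totals alone (Tlr4 and Myd88) and 0 under the others. For the averaged diet difference it was 2, and 1 with the DESeq2 Wald test and 1 with the replicate block (Cd14 each time), 3 with library totals alone and with no filter. Leaving out 1 library at a time gave 0 to 3 for diet in Elf4-/-, 0 to 1 for the interaction, 0 to 3 for the averaged diet difference and 0 to 1 for the averaged genotype difference. No pairing by replicate number was seen over all genes tested, where the correlations of same-numbered deviations between groups ran from -0.11 to 0.06. These correlations cannot exclude a link that touches few genes. The replicate block changed no other count of called members. The cause of these moves was not tested, and with 2 libraries a group a left-out fit has fewer libraries. Directions also turned for small, uncalled differences. With library totals alone the log2 differences were -0.20 for Ly96 and -0.19 for Ticam1 in genotype under EtOH, 0.16 for Tnfaip3 in genotype under the control diet, 0.24 for Lbp, 0.081 for Ticam1 and 0.041 for Tnfaip3 in diet in WT, and -0.12 for Ly96 and -0.26 for Myd88 in the interaction; with the replicate block Tnfaip3 was 0.34 in genotype under the control diet. Leaving out libraries gave values of both signs for these members. For genotype under EtOH the ranges were Tlr2 -1.26 to 0.56, Cd14 -1.42 to 0.22, Lbp -1.25 to 1.35, Ly96 -0.12 to 0.20, Myd88 -0.66 to 0.27, Ticam1 -0.22 to 0.33, Irak3 -0.35 to 1.34, Nfkbia -0.88 to 0.27 and Tnfaip3 -1.26 to 2.07. For genotype under the control diet the ranges were Tlr2 -0.077 to 1.89, Tlr4 -1.54 to 0.39, Nfkbia -0.017 to 0.44 and Tnfaip3 -0.83 to 1.60. For diet in WT the ranges were Lbp -0.64 to 0.16, Ly96 -0.13 to 0.31 and Tnfaip3 -1.16 to 1.27. For diet in Elf4-/- the ranges were Tlr2 -0.59 to 1.22, Lbp -0.26 to 2.33, Nfkbia -0.81 to 0.33 and Tnfaip3 -1.59 to 1.74. For the interaction the ranges were Tlr4 -1.58 to 0.34, Lbp -0.081 to 2.52, Myd88 -0.32 to 0.60, Nfkbia -1.10 to 0.047 and Tnfaip3 -1.19 to 2.15. For the diet difference averaged over genotypes the ranges were Lbp -0.22 to 1.07, Ticam1 -0.14 to 0.14, Nfkbia -0.26 to 0.31 and Tnfaip3 -0.99 to 1.07.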
